A study of Homo sapiens with 9 samples.

Results

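The genes described here encode the splicing machinery and its RNA-binding regulators: a set of 51 genes comprising 12 SR and TRA2 genes, 12 hnRNP genes with PTBP1, 26 core spliceosome genes and RBM39. They were found by symbol among the 60676 genes of the deposited table, and all 51 passed the count filter for testing, U2AF1 with few fragments. RNA was sequenced from A549, an established line of human lung adenocarcinoma cells with epithelial features. Each culture had received a lentiviral construct for 1 of 3 short hairpin RNAs: shNT, a non-targeting control, or shLITATS1-1 or shLITATS1-2, each directed against the long noncoding RNA LITATS1. All groups shared the transduction, 2 days of culture, puromycin at 1 ng/mL and 3 more days before RNA isolation. Each group held 3 libraries, numbered 1 to 3, and values given in sequence follow that numbering. Gene coordinates are those of GENCODE 29 on GRCh38. Nothing in the labels ties the libraries to separate transductions, and the p-values therefore reflect the spread among these libraries, which may be technical.

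The spliceosome removes introns from messenger RNA precursors. The U1 snRNP recognises the 5′ splice site, U2AF and the SF3 proteins of the U2 snRNP recognise the branch site and 3′ splice site, and the U4/U6.U5 tri-snRNP then joins and is remodelled into the catalytic form. SR proteins mostly bind exonic sequences and favour the use of nearby splice sites, whereas hnRNP proteins often oppose it. Many of these regulators also control their own transcripts through exons that lead to decay. The values here are fragments summed over each gene, so they do not separate splice forms and do not measure splicing.

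The libraries held 24556848 to 24671296 fragments each, of which 19610514 to 19989652 were assigned to genes. LITATS1 (ENSG00000233621, chr1:37454879-37474411, minus strand, GRCh38, annotated as antisense in GENCODE 29) had 274, 283 and 328 fragments in the shNT libraries. It had 72, 61 and 57 in those of shLITATS1-1 and 69, 63 and 56 in those of shLITATS1-2, so both hairpin groups lay below all controls. Without a stated strand setting, its reads cannot be told apart from those of a gene on the other strand. Fragments of mitochondrially encoded genes took 12.2% ± 0.224 (SD, n = 3) of gene fragments in controls, 10.2% ± 0.123 with shLITATS1-1 and 7.97% ± 0.235 with shLITATS1-2. All 6 airway epithelial markers were measured, and their summed level was 4312 CPM (fragments scaled to a common library size) in controls, 7580 with shLITATS1-1 and 3918 with shLITATS1-2. KRT8 and KRT18 make up most of that sum. Of the 6, 4 rose and 0 fell with shLITATS1-1, whereas with shLITATS1-2 KRT19 (1.00) and MUC1 (0.31) rose on the log2 scale and 3, KRT8, KRT18 and CDH1, fell. The summed levels of the fibroblast, immune and endothelial lists stayed at 6.04 CPM or less in every library, and PTPRC, the general leukocyte marker, had 0 or 1 fragment per library. CD14, the only immune gene tested, rose by 0.83 with shLITATS1-1 and 1.93 with shLITATS1-2 on the log2 scale. Of the 3 fibroblast genes tested, LUM rose by 2.95 with shLITATS1-1 and did not pass with shLITATS1-2. THY1 fell by 1.02 and 1.29, and PDGFRA did not pass with either hairpin. The part that the mitochondrial share or the epithelial markers have in the results below was not tested.

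Most splicing genes were lower with shLITATS1-1 than with shNT. Of the 51, 44 fell, 3 rose and 4 did not pass the test, at a median log2 fold change of -0.28. Of all 15500 genes tested, 30.5% were called lower and 30.5% called higher in that comparison, and their median log2 fold change was -0.01. A call is an adjusted p under 0.05 in the edgeR quasi-likelihood test. At a log2 change of at least 0.32, the second threshold used here, 19 of the 51 fell, where 17.6% of all genes did, and none rose by as much, where 20.4% of all genes did.

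With shLITATS1-2, 35 of the 51 genes fell, 6 rose and 10 did not pass, at a median of -0.19. The shares among all genes were 28.9% lower and 27.8% higher, with a median of -0.0040. At a log2 change of at least 0.32, 8 splicing genes fell and none rose, where 15.8% of all genes fell and 17.2% rose by as much. Both comparisons use the same 3 shNT libraries, so they are not independent of each other.

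Between the hairpins, 23 of the 51 genes were higher with shLITATS1-2 than with shLITATS1-1, 11 were lower and 17 did not pass the test. Among all genes 30.7% were called higher and 30.2% lower. Past a log2 difference of 0.32, 7 splicing genes were higher and 2 lower, where 17.9% and 19.5% of all genes were.

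The counts for shLITATS1-2 depend on how the libraries are scaled. CPM values here are scaled by TMM, which sets a common level from the bulk of genes. Scaling by library size alone moved the median of all genes to 0.11 for shLITATS1-2 against shNT and to 0.15 between hairpins. The split was then 9 higher and 23 lower for shLITATS1-2 against shNT, where 39.1% of all genes were called higher and 19.1% lower. The median of the 51 genes was then -0.08. Relative to the median of all genes it was -0.19 under both scalings. That value could hardly differ, since the change of scaling moves all genes by nearly the same amount. Between hairpins the split was 39 higher and 3 lower, where 44.6% and 21.2% of all genes were. The median relative to all genes was 0.07 there under both scalings, for the same reason. For shLITATS1-1 against shNT the split was 1 higher and 45 lower, where 28.9% of all genes were called higher and 32.1% lower. Counts given below for parts of the set are to be read against the shares of all genes under the same scaling. The share of all genes whose groups did not overlap was not counted. Statements below that groups or libraries did not overlap therefore describe single genes and do not set them apart.

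**Figure D1:**
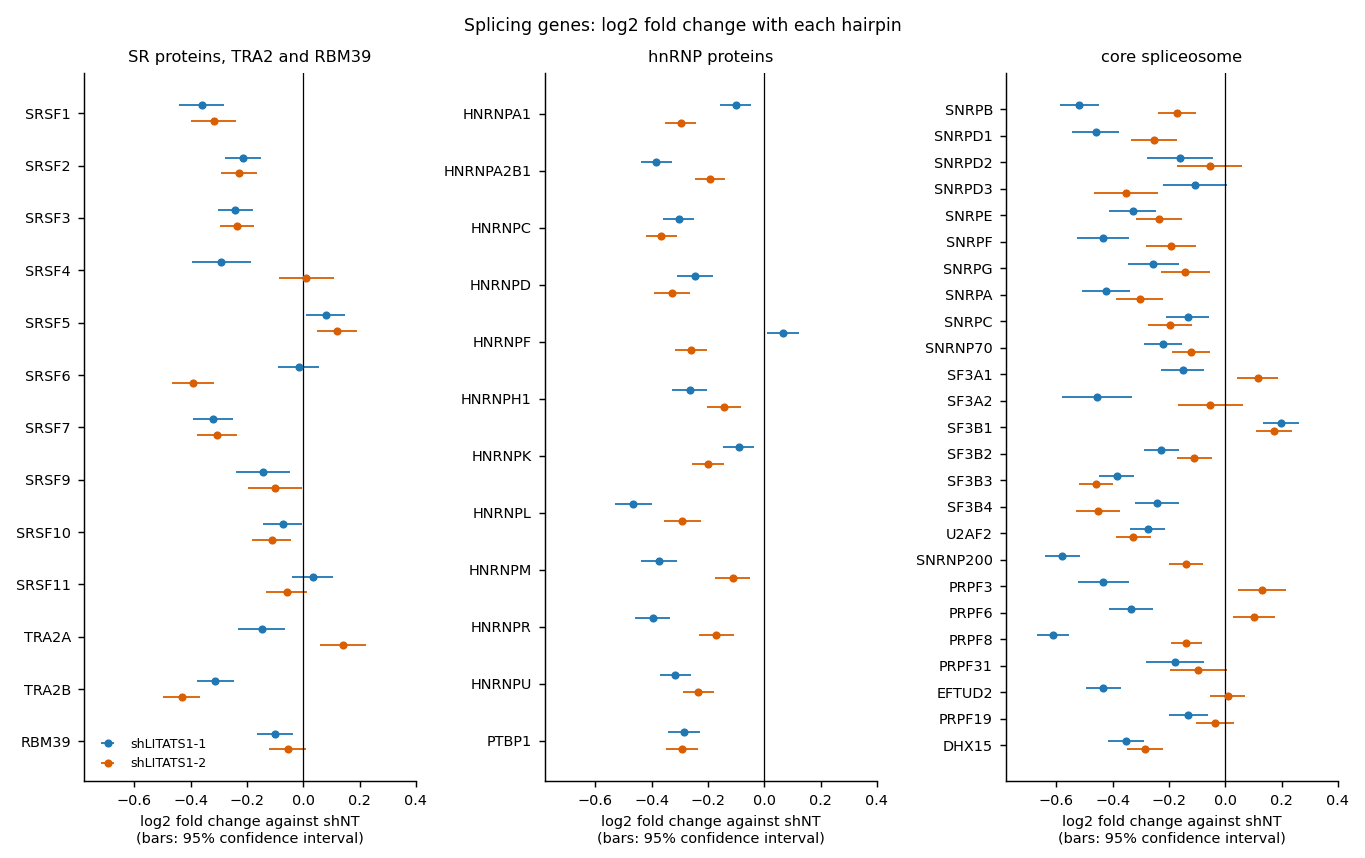
Log2 fold change of 50 splicing genes with shLITATS1-1 (blue) and shLITATS1-2 (orange) against the same 3 shNT libraries, under TMM scaling, with 95% confidence intervals as bars. Most points lie left of 0; SF3B1 and SRSF5 lie to the right with both hairpins, and U2AF1, with too few fragments for a stable value, is not drawn.

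The 6 genes of the U5 and tri-snRNP set differed between the hairpins. All 6 fell with shLITATS1-1, with a median log2 fold change of -0.43. With shLITATS1-2, 2 fell, 2 rose and 2 did not pass the test, with a median of -0.04. Between the hairpins, 5 of the 6 were higher with shLITATS1-2. With scaling by library size, the set gave 3 higher and 0 lower for shLITATS1-2 against shNT, where 39.1% of all genes were called higher and 19.1% lower.

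PRPF8 (ENSG00000174231, chr17:1650629-1684882, minus strand) encodes the large U5 protein at the catalytic centre. Its level was 707, 707 and 685 CPM with shNT, 450.2, 455 and 469 with shLITATS1-1, and 637, 638 and 632 with shLITATS1-2. The 3 groups did not overlap, and shLITATS1-1 was the lowest. The log2 fold change was -0.61 (SE 0.028, adjusted p = 3.1e-30) with shLITATS1-1 and -0.14 (SE 0.028, adjusted p = 2e-05) with shLITATS1-2. The direct difference between hairpins was 0.47 (95% confidence interval 0.42 to 0.53). Scaled by library size, the change with shLITATS1-2 was -0.02 and no longer passed the test.

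SNRNP200 (ENSG00000144028, chr2:96274336-96305515, minus strand), the helicase that unwinds the U4/U6 duplex, had the same order of groups. It stood at 386, 389.7 and 379 CPM with shNT, 250.4, 255 and 268 with shLITATS1-1, and 344, 361 and 344 with shLITATS1-2. The log2 fold changes were -0.58 (SE 0.031, adjusted p = 5.7e-27) and -0.14 (SE 0.03, adjusted p = 6.2e-05), and the hairpins differed by 0.44 (adjusted p = 1e-20). With library size scaling the change with shLITATS1-2 was -0.03 and did not pass.

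EFTUD2 (ENSG00000108883, chr17:44849943-44899662, minus strand), the GTPase of the U5 snRNP, was chosen for description once its values had been seen. Its libraries read 296, 311 and 299.6 CPM with shNT, 230.2, 216 and 225 with shLITATS1-1, and 307, 302 and 302 with shLITATS1-2. The shLITATS1-1 libraries lay below all others, while those of shLITATS1-2 fell within the control range. The change was -0.43 (adjusted p = 2.9e-20) with shLITATS1-1 and 0.01 (95% confidence interval -0.05 to 0.07, adjusted p = 0.84) with shLITATS1-2, which became 0.12 and passed the test under library size scaling.

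PRPF3 (ENSG00000117360, chr1:150321476-150353195, plus strand) and PRPF6 (ENSG00000101161, chr20:63981135-64033100, plus strand) are tri-snRNP proteins that moved in opposite directions with the hairpins. PRPF3 measured 66.1, 65.5 and 67.0 CPM with shNT, 49.5, 48.9 and 48.7 with shLITATS1-1, and 73.4, 69.2 and 74.8 with shLITATS1-2. It fell by 0.43 on the log2 scale with shLITATS1-1 and rose by 0.13 (adjusted p = 0.0061) with shLITATS1-2, a direct difference of 0.56 (SE 0.044, adjusted p = 1.4e-18). Without shLITATS1-2 replicate 3 the rise was 0.11 with an adjusted p of 0.055.

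PRPF6 measured 102, 108 and 102 CPM with shNT, 84.5, 79.0 and 83.3 with shLITATS1-1, and 112, 114 and 108 with shLITATS1-2. The log2 fold changes were -0.33 and 0.10 (adjusted p = 0.017), and the hairpins differed by 0.44. The small rise did not pass with DESeq2 (adjusted p = 0.058), without shNT replicate 3 (adjusted p = 0.083) or without shLITATS1-2 replicate 2 (adjusted p = 0.098). PRPF31, which bridges U4/U6 to U5, fell by 0.18 on the log2 scale with shLITATS1-1 and had a change of -0.10 (adjusted p = 0.1) with shLITATS1-2, which passed without shNT replicate 1 (-0.12, adjusted p = 0.044). Of its exonic sequence 32.0% is shared with other annotated genes, so its counts are less certain.

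**Figure D2:**
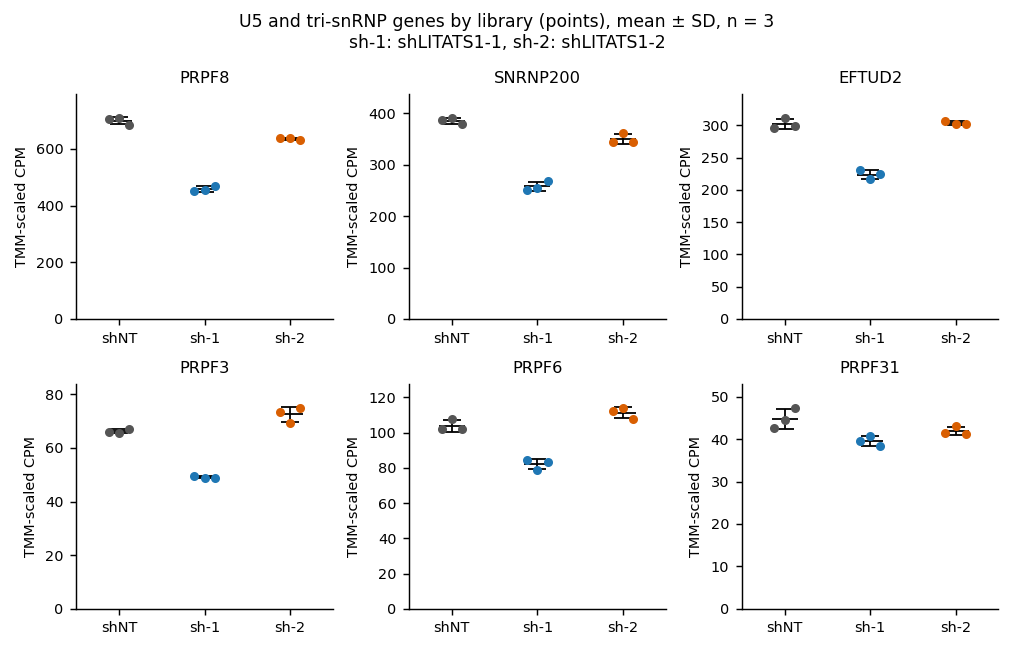
TMM-scaled CPM of the 6 U5 and tri-snRNP genes in each library (points), with the mean and SD of 3 libraries per group; axes start at 0. The shLITATS1-1 libraries (sh-1) are the lowest in every panel, and the shLITATS1-2 libraries (sh-2) lie near or above shNT for EFTUD2, PRPF3 and PRPF6.

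Promoters were set beside these values for 3 tri-snRNP genes that fell together with shLITATS1-1 and for SF3B1, which rose. They are the 150 bases before the RefSeq start in GRCh38.p14, on the strand of the gene. Capitals mark matches, on either strand, to the ETS motif CCGGAAG, the GC box GGGCGG, the letters CCAAT of a CCAAT box, those of a TATA box (TATAAA), the E box CACGTG or the E2F motif GCGGGAA. The windows are chr17:1684868-1685017 (minus) for PRPF8, chr2:96305547-96305696 (minus) for SNRNP200, chr20:63980982-63981131 (plus) for PRPF6 and chr2:197435094-197435243 (minus) for SF3B1.
PRPF8: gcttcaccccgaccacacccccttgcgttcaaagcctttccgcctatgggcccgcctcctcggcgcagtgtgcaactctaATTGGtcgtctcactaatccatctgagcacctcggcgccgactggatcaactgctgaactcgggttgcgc
SNRNP200: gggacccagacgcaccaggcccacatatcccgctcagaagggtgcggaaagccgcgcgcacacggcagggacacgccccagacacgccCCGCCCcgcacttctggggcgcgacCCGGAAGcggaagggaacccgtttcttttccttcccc
PRPF6: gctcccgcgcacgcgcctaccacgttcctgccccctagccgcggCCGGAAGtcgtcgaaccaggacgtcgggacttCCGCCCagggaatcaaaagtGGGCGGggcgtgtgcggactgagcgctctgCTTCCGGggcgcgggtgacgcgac
SF3B1: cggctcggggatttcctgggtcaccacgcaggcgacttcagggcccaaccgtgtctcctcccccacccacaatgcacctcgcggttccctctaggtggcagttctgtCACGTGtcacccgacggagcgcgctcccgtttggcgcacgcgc

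In this window SNRNP200 and PRPF6 held ETS and GC box letters, PRPF8 held only a reversed CCAAT, and SF3B1 held only the E box. RefSeq promoters of 300 bases were present for 44 of the 51 genes, 60 promoters in all. The ETS motif was in 31.7% of these against 10.3% of all 35116 promoters, and the E2F motif in 21.7% against 6.55%. The GC box was in 55.0% against 45.0%, CCAAT in 31.7% against 34.6%, TATAAA in 10.0% against 11.5% and the E box in 8.33% against 7.26%. The same 150 bases of EFTUD2 held none of the letters searched and are not printed. These are matches of letters and say nothing of binding.

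The Sm proteins form the ring around each spliceosomal small nuclear RNA. Of the 7 Sm genes, 6 fell with shLITATS1-1 and 6 with shLITATS1-2, with medians of -0.33 and -0.19, and 0 rose with either. Scaling by library size left 3 that fell with shLITATS1-2. SNRPB (ENSG00000125835, chr20:2461634-2470853, minus strand) fell furthest with shLITATS1-1. It read 221, 241 and 231 CPM with shNT, 167, 166 and 151 with shLITATS1-1, and 209.6, 204 and 201 with shLITATS1-2. The 3 groups did not overlap, with log2 fold changes of -0.52 and -0.17, the second being -0.06 without a call under library size scaling. The gene was picked for description once its values had been seen.

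SNRPD3 (ENSG00000100028, chr22:24555503-24609980, plus strand) had the reverse order of hairpins. It read 31.6, 34.2 and 31.9 CPM with shNT, 29.9, 30.7 and 30.1 with shLITATS1-1, and 25.8, 25.6 and 25.04 with shLITATS1-2. The change was -0.11 (adjusted p = 0.099) with shLITATS1-1 and -0.35 (adjusted p = 2.3e-07) with shLITATS1-2, a difference of -0.25 between hairpins that became -0.12 (adjusted p = 0.077) under library size scaling. SNRPD1 fell by 0.46 and 0.25, SNRPF by 0.43 and 0.19, SNRPE by 0.33 and 0.24, and SNRPG by 0.26 and 0.14 with shLITATS1-1 and shLITATS1-2 in turn. SNRPD2 fell by 0.16 with shLITATS1-1 and had a change of -0.05 with shLITATS1-2. Its first call did not pass without shNT replicate 1, 2 or 3 or without shLITATS1-1 replicate 2 (adjusted p from 0.056 to 0.079), and the second change was -0.11 with a call (adjusted p = 0.02) without shLITATS1-2 replicate 1. The fall of SNRPG with shLITATS1-2 was 0.10 and did not pass without shNT replicate 3 (adjusted p = 0.085). Many pseudogenes are named after SNRPG (20) and SNRPE (9), and reads may be split between such copies.

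All 3 U1 genes fell with both hairpins under TMM scaling, and 1 of the 3 fell with shLITATS1-2 under library size scaling. SNRPA, the U1 A protein, fell by 0.42 and 0.30 on the log2 scale with shLITATS1-1 and shLITATS1-2, SNRNP70 by 0.22 and 0.12, and SNRPC by 0.13 and 0.20. Without shLITATS1-2 replicate 3 the second change of SNRNP70 was -0.08 (adjusted p = 0.057). For SNRPC, reads may be split with the 18 pseudogenes named after it.

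The SF3 genes of the U2 snRNP were mixed. With shLITATS1-1, 5 of 6 fell and 1 rose, and with shLITATS1-2 3 fell and 2 rose. SF3B1 (ENSG00000115524, chr2:197389784-197435091, minus strand), which contacts the branch site and is recurrently mutated in blood cancers, was the one that rose with both. It read 269, 246 and 252 CPM with shNT, 287, 298 and 296 with shLITATS1-1, and 291, 289.7 and 284 with shLITATS1-2. Every hairpin library lay above every control. The log2 fold changes were 0.20 (SE 0.032, adjusted p = 1.2e-07) and 0.17 (SE 0.032, adjusted p = 2.8e-06), and the hairpins differed by -0.03 (95% confidence interval -0.09 to 0.04), which turned to 0.10 under library size scaling.

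SF3B3 (ENSG00000189091, chr16:70523788-70577670, plus strand), a scaffold of the same complex, fell with both. It read 295, 292 and 284 CPM with shNT, 224, 221 and 222 with shLITATS1-1, and 216, 211 and 207 with shLITATS1-2. The groups did not overlap, and the log2 fold changes were -0.39 and -0.46. SF3B4 (ENSG00000143368, chr1:149923317-149928344, minus strand) read 114, 124 and 111 CPM with shNT, 98.3, 98.4 and 98.7 with shLITATS1-1, and 88.8, 80.7 and 86.0 with shLITATS1-2. It fell by 0.24 and by 0.45, and the shLITATS1-2 libraries were the lowest for both genes under TMM scaling. By library size alone, the hairpins differed by 0.06 for SF3B3 and by -0.08 for SF3B4, neither of which passed the test.

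SF3A1 (ENSG00000099995, chr22:30331988-30356947, minus strand) was called in opposite directions. It read 115, 116 and 113 CPM with shNT, 98.8, 109 and 102 with shLITATS1-1, and 128, 121 and 124 with shLITATS1-2. The groups did not overlap, with log2 fold changes of -0.15 and 0.11 and a difference of 0.27 between hairpins (adjusted p = 5e-09). SF3A2 fell by 0.45 with shLITATS1-1, and its change with shLITATS1-2 was -0.05 (adjusted p = 0.46). SF3B2 fell by 0.23 and 0.11, and under library size scaling the second change was 0.0036 and did not pass. By that scaling 2 of the 6 SF3 genes fell and 2 rose with shLITATS1-2.

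U2AF2, the large subunit that binds the polypyrimidine tract, fell by 0.28 and 0.33. U2AF1 (ENSG00000160201, chr21:43092956-43107587, minus strand), its small partner, had only 2 to 14 fragments per library and read 0.615, 0.563 and 0.565 CPM with shNT, 0.210, 0.316 and 0.158 with shLITATS1-1, and 0.0966, 0.337 and 0.673 with shLITATS1-2. Its near-identical copy U2AF1L5 (ENSG00000275895) had 24 to 41 fragments per library, so reads may be split or discarded between the copies, and the value of neither is certain. U2AF1 passed the count filter mainly through the shNT libraries, where its mean was highest. In the fit of the hairpin libraries alone, 50 of the splicing genes were tested. The call for U2AF1 with shLITATS1-1 (-1.32, adjusted p = 0.014) is therefore no evidence of a fall. It did not pass without shLITATS1-1 replicate 3 (-1.12, adjusted p = 0.066). With shLITATS1-2 its change was -0.64 (adjusted p = 0.19), and -1.40 (adjusted p = 0.02) without shLITATS1-2 replicate 3. Leaving U2AF1 out, 43 of 50 splicing genes fell with shLITATS1-1 and 35 with shLITATS1-2.

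DHX15, the helicase that takes spent spliceosomes apart, fell by 0.35 and 0.28. PRPF19 (ENSG00000110107, chr11:60890730-60906588, minus strand), the ubiquitin ligase of a complex that activates the spliceosome, read 146, 157 and 155 CPM with shNT, 141, 138 and 140.1 with shLITATS1-1, and 153, 149.7 and 144 with shLITATS1-2. All shLITATS1-1 libraries and 1 shLITATS1-2 library lay below all controls. The changes were -0.13 and -0.04, and the second was 0.08 under library size scaling. After a correction for gene length the first was -0.04 and did not pass.

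Of the 12 SR and TRA2 genes, 8 fell and 1 rose with shLITATS1-1, and 7 fell and 2 rose with shLITATS1-2. The splits by library size were 0 higher and 9 lower, and 3 higher and 6 lower. Of all genes, 28.9% were called higher and 32.1% lower with shLITATS1-1 by that scaling, and 39.1% and 19.1% with shLITATS1-2. SRSF1 (ENSG00000136450, chr17:58003360-58007346, minus strand), the founding member of the family, read 100.3, 95.1 and 99.6 CPM with shNT, 73.2, 80.4 and 76.0 with shLITATS1-1, and 80.1, 75.8 and 80.5 with shLITATS1-2. All hairpin libraries lay below all controls, with log2 fold changes of -0.36 (adjusted p = 3.5e-12) and -0.32 (adjusted p = 1.7e-10). The hairpins themselves differed by 0.04 (95% confidence interval -0.04 to 0.13). Of the exonic sequence of SRSF1, 60.7% is shared with other annotated genes.

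SRSF7 (ENSG00000115875, chr2:38743599-38751494, minus strand), which also takes part in mRNA export, read 162, 167 and 171 CPM with shNT, 133, 136 and 131 with shLITATS1-1, and 143, 134 and 128 with shLITATS1-2. It fell by 0.32 and 0.31. SRSF3 fell by 0.24 with each hairpin, and SRSF2 by 0.21 and 0.23, although 36.7% of the exonic sequence of SRSF2 is shared with other annotated genes. These 4 genes had nearly equal changes with both hairpins under TMM scaling.

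SRSF6 (ENSG00000124193, chr20:43457928-43464247, plus strand), a further SR protein, differed between the hairpins. It read 121, 114 and 118 CPM with shNT, 113, 121 and 115 with shLITATS1-1, and 89.8, 90.0 and 89.4 with shLITATS1-2. The first 2 groups overlapped, and all shLITATS1-2 libraries lay below them. The change was -0.02 (95% confidence interval -0.09 to 0.06) with shLITATS1-1 and -0.39 (adjusted p = 9.8e-15) with shLITATS1-2, a difference of -0.37 (SE 0.038, adjusted p = 6e-14).

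SRSF4 (ENSG00000116350, chr1:29147743-29181987, minus strand) showed the other order. It read 45.6, 47.9 and 48.2 CPM with shNT, 39.8, 35.5 and 40.6 with shLITATS1-1, and 47.4, 47.0 and 48.4 with shLITATS1-2. It fell by 0.29 with shLITATS1-1, and with shLITATS1-2 its change was 0.01 (95% confidence interval -0.09 to 0.11), or 0.12 with a call under library size scaling.

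SRSF5 (ENSG00000100650, chr14:69726900-69772005, plus strand) was the SR gene called higher with both hairpins. It read 125, 131 and 131 CPM with shNT, 138, 135 and 135 with shLITATS1-1, and 135, 141 and 144 with shLITATS1-2. Its rise with shLITATS1-1, 0.08 (adjusted p = 0.048), did not pass in 7 of the 9 fits that left out a library, with adjusted p from 0.053 to 0.15 in those, nor with DESeq2 (adjusted p = 0.1). Its rise with shLITATS1-2 was 0.12 (adjusted p = 0.0027).

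SRSF11 (ENSG00000116754, chr1:70205682-70253052, plus strand) did not pass the test against shNT. It read 115, 111 and 115 CPM with shNT, 117, 114 and 117 with shLITATS1-1, and 105, 109 and 113 with shLITATS1-2. SRSF9 fell by 0.14 with shLITATS1-1 and its change was -0.10 (adjusted p = 0.064) with shLITATS1-2. SRSF10 had a change of -0.07 (adjusted p = 0.063) with shLITATS1-1 and fell by 0.11 with shLITATS1-2. Another annotated gene shares 46.2% of the exonic sequence of SRSF9. These calls turned on single libraries: SRSF9 with shLITATS1-1 did not pass without shLITATS1-1 replicate 2 (adjusted p = 0.052) and passed with shLITATS1-2 without its replicate 1 (adjusted p = 0.015). SRSF10 with shLITATS1-2 did not pass without shNT replicate 1 (-0.07, adjusted p = 0.09) and passed with shLITATS1-1 without shNT replicate 2 (adjusted p = 0.02).

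The TRA2 pair, which promote exon inclusion from purine-rich enhancers, parted. TRA2B (ENSG00000136527, chr3:185915906-185938136, minus strand) read 198, 204 and 199.6 CPM with shNT, 164, 158 and 163 with shLITATS1-1, and 153, 149 and 144 with shLITATS1-2. It fell by 0.31 and 0.43, with no overlap between the groups, although by library size alone the hairpins differed by 0.01. TRA2A (ENSG00000164548, chr7:23504780-23532041, minus strand) read 72.2, 68.5 and 70.2 CPM with shNT, 64.6, 62.5 and 63.2 with shLITATS1-1, and 79.1, 75.5 and 78.1 with shLITATS1-2. It fell by 0.15 (adjusted p = 0.0018) with shLITATS1-1 and rose by 0.14 (adjusted p = 0.0023) with shLITATS1-2, again with no overlap, and the hairpins differed by 0.29 (adjusted p = 7.8e-09).

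**Figure D3:**
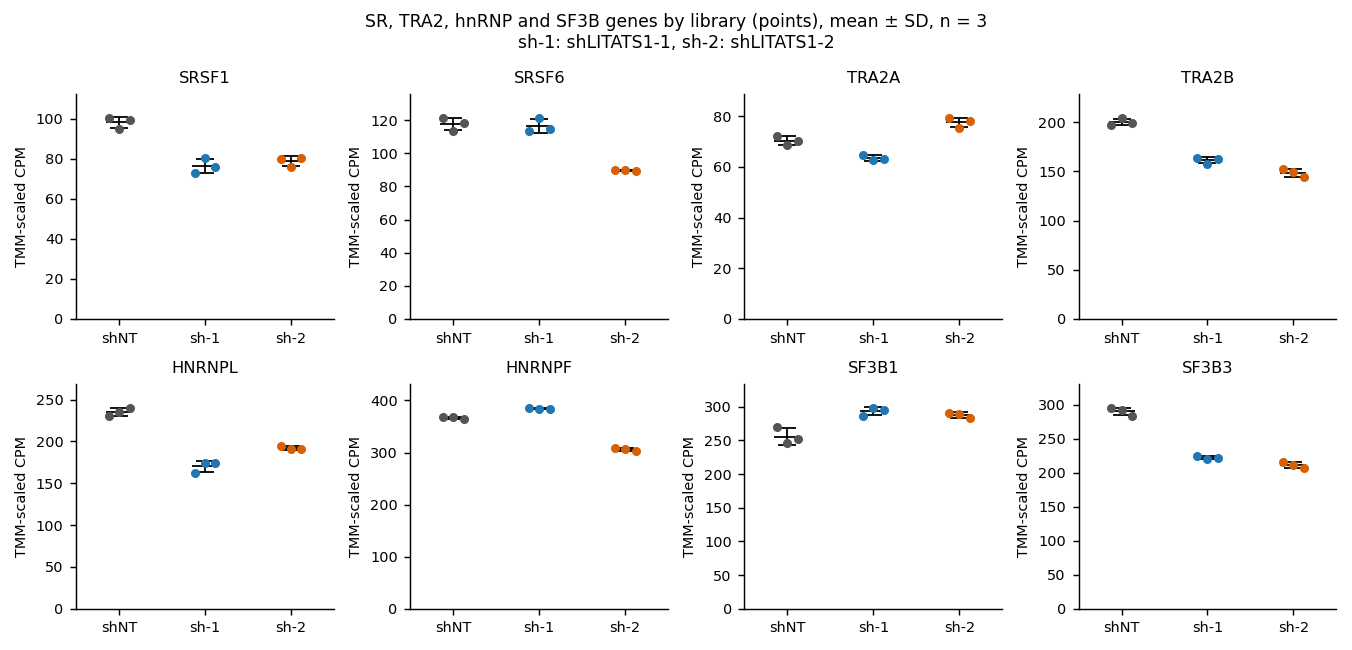
TMM-scaled CPM by library (points), with mean and SD of 3 libraries per group, for SRSF1, SRSF6, TRA2A, TRA2B, HNRNPL, HNRNPF, SF3B1 and SF3B3; axes start at 0. SRSF1, TRA2B, HNRNPL and SF3B3 are below shNT with both hairpins, SF3B1 is above it with both, and SRSF6, TRA2A and HNRNPF differ between the hairpins.

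Nearly every hnRNP gene was below the control with each hairpin. Of the 12, 11 fell and 1 rose with shLITATS1-1, and all 12 fell with shLITATS1-2, with medians of -0.29 and -0.25. By library size, 0 rose with shLITATS1-1 and 9 fell with shLITATS1-2. Between the hairpins, 6 were higher and 5 lower with shLITATS1-2, or 8 and 2 under library size scaling, where 44.6% and 21.2% of all genes were.

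HNRNPL (ENSG00000104824, chr19:38836388-38852347, minus strand), a binder of CA-rich RNA, fell furthest with shLITATS1-1. It read 229.9, 236 and 239.8 CPM with shNT, 162, 174 and 175 with shLITATS1-1, and 195, 191 and 191 with shLITATS1-2. The groups did not overlap, with log2 fold changes of -0.47 (SE 0.033, adjusted p = 8.4e-21) and -0.29 (SE 0.032, adjusted p = 2.6e-12).

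HNRNPR (ENSG00000125944, chr1:23303771-23344336, minus strand) read 263, 257 and 262 CPM with shNT, 198, 202 and 194 with shLITATS1-1, and 231, 237 and 228 with shLITATS1-2, changes of -0.40 and -0.17. HNRNPA2B1 (ENSG00000122566, chr7:26173057-26201529, minus strand), a core protein of hnRNP particles, read 1066, 1031 and 1053 CPM with shNT, 812, 809 and 794 with shLITATS1-1, and 919.5, 912 and 924 with shLITATS1-2, changes of -0.38 and -0.19. HNRNPM (ENSG00000099783, chr19:8444767-8489114, plus strand) read 229.7, 227 and 225 CPM with shNT, 173, 179 and 174 with shLITATS1-1, and 209, 211 and 210.4 with shLITATS1-2, changes of -0.37 and -0.11. In all 3 genes the shLITATS1-2 libraries lay between the other groups without overlap. Under library size scaling the change with shLITATS1-2 did not pass for HNRNPR (-0.06) and had the opposite sign for HNRNPM (0.0011).

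HNRNPA1, HNRNPC, HNRNPD and HNRNPK were lowest with shLITATS1-2 under TMM scaling. HNRNPA1 (ENSG00000135486, chr12:54280193-54287088, plus strand), which opposes SRSF1 at many exons, read 897, 914 and 906 CPM with shNT, 823, 852 and 856 with shLITATS1-1, and 726, 739.7 and 745 with shLITATS1-2. It fell by 0.10 (adjusted p = 0.001) and by 0.30 (adjusted p = 3.4e-15), and 74 pseudogenes are named after it, so reads may be split. HNRNPC (ENSG00000092199, chr14:21209136-21269494, minus strand), a binder of uridine tracts, read 710.2, 705 and 715 CPM with shNT, 572, 573 and 581 with shLITATS1-1, and 555, 546 and 553 with shLITATS1-2, changes of -0.30 and -0.37. Its reads may also be split, with 9 pseudogenes named after it.

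HNRNPD (ENSG00000138668, chr4:82352498-82374503, minus strand), also known as AUF1, a binder of AU-rich elements, read 214, 206 and 211 CPM with shNT, 182, 176 and 174 with shLITATS1-1, and 168, 169 and 166 with shLITATS1-2, changes of -0.25 and -0.33. HNRNPK (ENSG00000165119, chr9:83968083-83980616, minus strand), a binder of cytosine-rich tracts, read 653, 643 and 643 CPM with shNT, 610.2, 603 and 606 with shLITATS1-1, and 566, 561 and 561 with shLITATS1-2, changes of -0.09 and -0.20. In these genes the groups did not overlap. The differences between hairpins were small (-0.06 for HNRNPC, -0.08 for HNRNPD and -0.11 for HNRNPK). All 3 turned positive under library size scaling, at 0.07, 0.05 and 0.02, where only that of HNRNPC passed (adjusted p = 0.024). After the GC correction none of the 3 passed. Under TMM scaling the call for HNRNPC (adjusted p = 0.049) was lost without a filter, with the replicate block and in every fit that left out a hairpin library. That for HNRNPD was lost without a filter (adjusted p = 0.079).

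HNRNPH1 (ENSG00000169045, chr5:179614178-179634784, minus strand) and HNRNPF (ENSG00000169813, chr10:43385617-43409166, minus strand) bind guanine-rich RNA and are close relatives. HNRNPH1 read 351, 339 and 347 CPM with shNT, 289, 289.9 and 283 with shLITATS1-1, and 306, 309 and 324 with shLITATS1-2, changes of -0.27 and -0.14. The second was -0.03 and did not pass under library size scaling. HNRNPF read 368, 368 and 365 CPM with shNT, 385, 384 and 384 with shLITATS1-1, and 309, 307 and 304 with shLITATS1-2. It was thus the hnRNP gene called in opposite directions, 0.07 (adjusted p = 0.039) and -0.26 (adjusted p = 3.6e-12), with a difference of -0.33 (SE 0.029, adjusted p = 4.2e-16). The small rise with shLITATS1-1 did not pass in 7 of the 9 fits that left out a library, with adjusted p from 0.053 to 0.1 in those, nor under library size scaling (0.05, adjusted p = 0.13).

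HNRNPU, a nuclear matrix protein, fell by 0.32 and 0.23, and PTBP1, the polypyrimidine tract repressor, fell by 0.29 with each hairpin. RBM39 (ENSG00000131051, chr20:35701347-35742312, minus strand), a U2AF-like factor and the target of aryl sulfonamide degraders, read 194, 188 and 187 CPM with shNT, 176, 175 and 180.0 with shLITATS1-1, and 179, 179.7 and 189 with shLITATS1-2. It fell by 0.10 (adjusted p = 0.0064) with shLITATS1-1, and with shLITATS1-2, where 1 library reached the control range, its change was -0.06 (adjusted p = 0.14), or 0.06 without a call under library size scaling.

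Summed over a class, the 12 hnRNP genes made up 6245 ± 19.8 CPM (SD, n = 3) in controls, 5266 ± 29.4 with shLITATS1-1 and 5268 ± 13.0 with shLITATS1-2. The 12 SR and TRA2 genes summed to 1597 ± 9.21, 1416 ± 9.45 and 1398 ± 6.21 CPM in the same order. The 26 core genes summed to 4587 ± 54.0, 3636 ± 8.51 and 4167 ± 81.8 CPM. The hnRNP sum was thus 84.3% and 84.4% of the control with shLITATS1-1 and shLITATS1-2, the SR sum 88.7% and 87.5%, and the core sum 79.3% and 90.8%. These sums are under TMM scaling and carry no test. By library size, 8 hnRNP genes were higher and 2 lower with shLITATS1-2 than with shLITATS1-1, and 9 SR and TRA2 genes were higher and 1 lower. Of all genes, 44.6% were called higher and 21.2% lower in that comparison. In bulk RNA, fewer cells expressing a gene and less RNA per cell cannot be told apart.

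**Figure D4:**
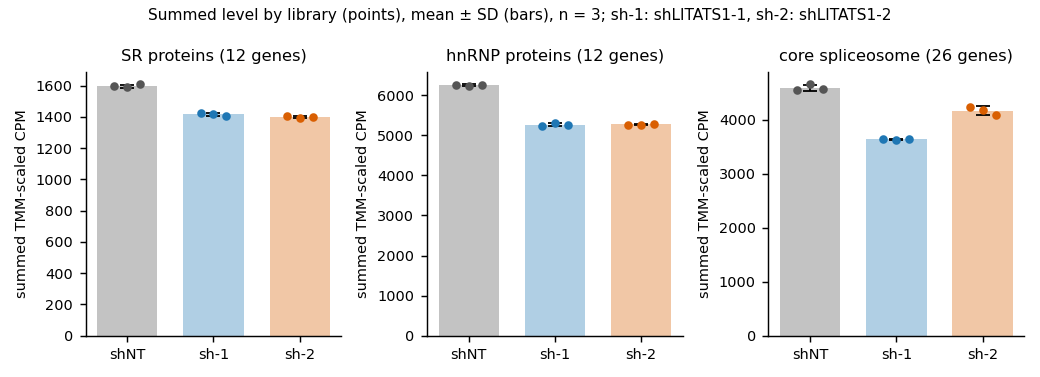
Summed TMM-scaled CPM of each class by library (points), with the mean (bars) and SD of 3 libraries per group. The SR and hnRNP sums are nearly the same with both hairpins under this scaling, while the core sum is lower with shLITATS1-1 (3636 CPM) than with shLITATS1-2 (4167 CPM).

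Per kilobase of exonic sequence, the highest levels with shNT were those of SNRPB at 180.7 CPM per kb, HNRNPA1 at 178, HNRNPK at 126, HNRNPA2B1 at 113 and HNRNPF at 113. The lowest were SF3A2 at 10.6, SRSF4 at 5.31 and U2AF1 at 0.052 CPM per kb. These lengths span all annotated isoforms, so they set only an approximate order.

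The wider pathway was covered by 151 other genes in 11 lists, of which 146 were tested. With shLITATS1-1, 90 fell and 13 rose, and with shLITATS1-2, 69 fell and 14 rose, to be read against the shares of all genes given above. Under library size scaling the split with shLITATS1-2 was 45 lower and 47 higher, where 19.1% and 39.1% of all genes were. With shLITATS1-1 it was 95 lower and 12 higher, where 32.1% and 28.9% of all genes were. Counts in the lists below are under TMM scaling unless stated. By that scaling 30.5% of all genes were called lower and 30.5% higher with shLITATS1-1, and 28.9% and 27.8% with shLITATS1-2. The SR kinases, minor spliceosome genes and tissue splicing regulators lay near these shares, so their counts do not set them apart.

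Of 19 other U1, U2 and tri-snRNP genes, 15 fell and 0 rose with shLITATS1-1 (median -0.31). With shLITATS1-2, 9 fell and 2 rose, which became 4 and 7 under library size scaling. PPIH (-0.70) and SART1 (-0.46) were among the genes that fell with shLITATS1-1. With shLITATS1-2, USP39 (-0.92), PPIH (-0.42) and SNRNP40 (-0.35) fell. USP39, a tri-snRNP factor, was lower with shLITATS1-2 than with shLITATS1-1 by 0.61 on the log2 scale, whereas 12 genes of the list were higher.

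Of the 8 LSm genes, whose rings bind U6 or mRNA awaiting decay, 7 fell with shLITATS1-1 and 5 with shLITATS1-2, and 0 rose. LSM5 fell by 0.52 and 0.48, and LSM2 by 0.47 and 0.48. LSM4 fell by 0.57 and 0.12, and the hairpins differed by 0.45. By library size, 4 LSm genes fell and 2 rose with shLITATS1-2.

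Of 12 tested snRNP assembly genes, which load Sm rings onto small nuclear RNA, 9 fell with shLITATS1-1 and 7 with shLITATS1-2, and 0 rose. GEMIN4 fell by 0.75 and 0.63. GEMIN2 fell by 0.76 with shLITATS1-1, and its change with shLITATS1-2 was -0.17 (adjusted p = 0.064). PRMT5, which methylates Sm proteins, fell by 0.48 with shLITATS1-1 and had a change of -0.02 with shLITATS1-2. Its partner CLNS1A had the reverse pattern, -0.01 and -0.48, with a difference of -0.48 between hairpins. The split for shLITATS1-2 by library size was 7 lower and 2 higher.

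Of 16 exon junction and mRNA export genes, 14 fell and 0 rose with shLITATS1-1, and 11 fell and 1 rose with shLITATS1-2, or 8 and 2 under library size scaling. ALYREF, the export adaptor, fell by 0.92 and 0.26, from 91.3 CPM with shNT to 48.2 with shLITATS1-1 and 76.4 with shLITATS1-2. THOC6 fell by 0.90 and 0.63, MAGOHB by 0.75 and 0.28, THOC3 by 0.37 and 0.60, and RNPS1 by 0.20 and 0.46.

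The genes of the PRPF19 complex and late splicing factors were mixed, with 11 of 21 lower and 3 higher with shLITATS1-1, and 8 lower and 3 higher with shLITATS1-2, or 4 and 9 under library size scaling. AQR, the intron-binding helicase, rose by 0.49 and 0.47. DDX46 fell by 0.44 and 0.31 and CWC22 by 0.16 and 0.54. DDX41 fell by 0.45 with shLITATS1-1, and its change with shLITATS1-2 was 0.00. Of 8 minor spliceosome genes, 3 fell and 2 rose with shLITATS1-1, and 2 fell and 1 rose with shLITATS1-2. SNRNP25 fell by 0.39 and 0.62, and ZCRB1 rose by 0.38 and 0.26.

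Of the 8 SR kinases, 2 rose and 2 fell with shLITATS1-1, and 1 rose and 1 fell with shLITATS1-2, which became 6 and 1 under library size scaling. SRPK2, a cytoplasmic kinase that phosphorylates SR proteins, rose by 0.81 and 0.66, from 42.0 CPM with shNT to 73.7 and 66.6. CLK3 fell by 0.67 and CLK1 rose by 0.47 with shLITATS1-1, while their changes with shLITATS1-2 were 0.08 and 0.06 and did not pass. PRPF4B fell by 0.31 and 0.25.

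Of 15 SR-related and speckle genes, 7 fell and 1 rose with each hairpin, or 2 fell and 5 rose with shLITATS1-2 under library size scaling. SRSF8 was called in opposite directions, 0.26 and -0.39. Of 16 other hnRNP and poly(C) genes, 12 fell and 1 rose with shLITATS1-1, and 9 fell and 1 rose with shLITATS1-2, or 6 and 4 under library size scaling. PTBP3, a paralog of PTBP1, fell by 0.42 and 0.98, from 282 CPM with shNT to 211 and 143. HNRNPAB fell by 0.34 and 0.51.

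Of 13 tested tissue splicing regulators, 5 fell and 3 rose with shLITATS1-1, and 5 fell and 2 rose with shLITATS1-2, or 4 and 5 under library size scaling. QKI, a regulator of mesenchymal splicing and circular RNA, fell by 0.51 and 1.24, from 122 CPM with shNT to 85.5 and 51.8. RBFOX2 rose by 0.57 and 0.53. MBNL1 rose by 0.39 with shLITATS1-1 and fell by 0.35 with shLITATS1-2, and the hairpins differed by -0.73 (SE 0.036, adjusted p = 9.9e-28). The epithelial regulators ESRP1 and ESRP2 had 0 to 3 and 2 to 6 fragments per library and were not tested.

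Of the 10 genes of nonsense-mediated decay, which degrades many unproductively spliced transcripts, 5 fell and 1 rose with shLITATS1-1, and 5 fell and 2 rose with shLITATS1-2, or 3 and 3 under library size scaling. SMG5 fell by 0.33 and 0.32, and UPF2 by 0.41 and 0.20. SMG9 fell by 0.32 with shLITATS1-1 and rose by 0.23 with shLITATS1-2.

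**Figure D5:**
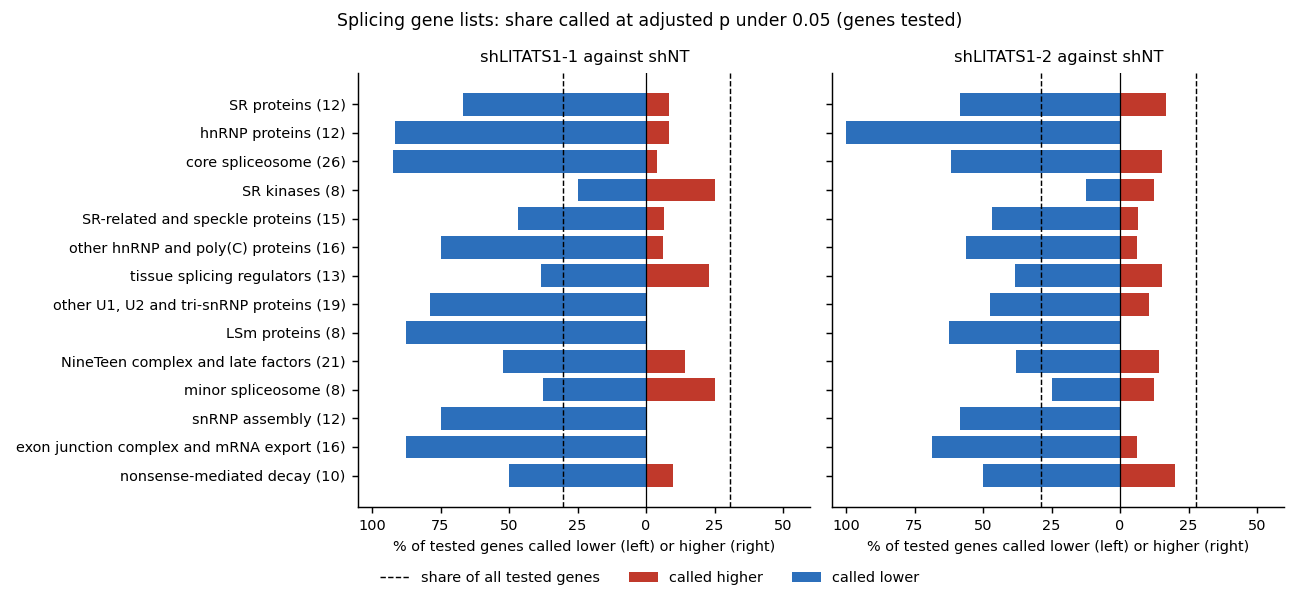
Percentage of tested genes called lower (blue, left) or higher (red, right) in each class and pathway list, for each hairpin against shNT under TMM scaling; dashed lines are the shares of all tested genes and the number tested is in brackets. The hnRNP and core classes lie far beyond the lower line with shLITATS1-1. So do several pathway lists, such as the LSm genes and those of the exon junction and mRNA export. The SR kinases, minor spliceosome genes and tissue splicing regulators lie near it. With library size scaling the bars of the shLITATS1-2 panel and its dashed lines would both move to the right.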

How the data were processed

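RNA of 9 A549 libraries, 3 per hairpin, was sequenced. The values are counts of fragments per gene, which the authors deposited unnormalized in 1 table. FastQC, cutadapt 2.10, STAR 2.7.5a, HTSeq 0.12.4 and build GRCh38 were used, per the submitters' processing notes. For the strand setting and the annotation release, a statement is not given in the sources used here; antisense, overlapping and near-identical genes are therefore uncertain. Library sizes exclude the counter's lines without a gene, among them ambiguous fragments, 10.2% to 10.9% of a library.

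Genes were matched to GENCODE 29 by identifier. Of 60676 genes, 15500 passed filterByExpr of edgeR (minimum count 10). All 9 libraries entered 1 quasi-likelihood fit (edgeR 4.0.16, R 4.3.3, TMM, robust, 6 residual degrees of freedom), two-sided, with Benjamini-Hochberg adjustment over all tested genes and a threshold of 0.05. TMM factors ran from 0.964 to 1.06. Counts of replicate pairs differed by more than sampling noise (chi-square per degree of freedom 1.47 to 2.72). Alternatives were DESeq2 1.42.0, its size factors, library size scaling, other filters and thresholds, the 6 libraries compared, a replicate block, corrections for GC content and length, and leaving out each library. Promoters are RefSeq's, on GRCh38.p14.

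Values in every library are given for the 3 highest and 3 lowest genes of each class with each hairpin, the 2 highest and 2 lowest between hairpins, genes called in opposite directions, RBM39, EFTUD2 and SNRPB, and in each list for up to 3 called genes with the largest changes the fold change is given. A few list genes within this rule are not reported here. The genes and lists were chosen with earlier results of these data known.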

Additional observations from a re-analysis of the deposited data

How the results depend on the processing

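For shLITATS1-1 against shNT, the 3 splicing genes called higher became 1 under library size scaling, without a filter, with the replicate block and at an adjusted p under 0.01, and 0 at a log2 change of at least 0.32. Leaving out 1 library gave 1 to 3. The 44 called lower became 19 at that size. For shLITATS1-2 against shNT, the 6 called higher became 0 at that size, and the 35 called lower became 23 under library size scaling and 8 at that size. Between hairpins, the 23 called higher became 39 under library size scaling and 7 at that size. The 11 called lower became 3 under library size scaling, 7 without a filter, 7 at an adjusted p under 0.01 and 2 at that size, and leaving out 1 library gave 7 to 11. With the replicate block 44 were called lower with shLITATS1-1, 35 lower with shLITATS1-2, and 23 higher and 9 lower between hairpins. Deviations from the group mean correlated between -0.304 and 0.165 for same-numbered libraries and between -0.15 and 0.232 for differently numbered ones. These correlations are not independent with 3 libraries per group, so whether the replicate numbers pair the libraries cannot be told.

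Sign changes are listed here only for the 32 genes given by library. Others also turned under library size scaling, such as SF3B2 (0.0036) with shLITATS1-2 against shNT and PTBP1 (0.125) between hairpins. Among changes of the 32 called in either fit, that scaling turned the sign for HNRNPM (0.0011) and PRPF19 (0.0768) with shLITATS1-2 against shNT. Between hairpins it turned for SRSF11 (0.0396), TRA2B (0.0111), HNRNPC (0.0692), HNRNPD (0.0489), HNRNPK (0.0226), SF3B1 (0.105) and SF3B3 (0.0582), and for SF3B1 (0.0585) with the GC correction. The next tally includes an adjusted p under 0.01 and a log2 change of at least 0.32, stricter cuts on the fit used throughout. Under them no sign can turn and calls can only be lost. Of 1916 fold changes of the 32 genes, 1738 kept their sign and their side of the threshold. A further 141 no longer passed, 11 newly passed and the 10 above reversed. In 16 more the sign changed with no call in either fit, among them SRSF11 (0.0549) and RBM39 (0.0572) with shLITATS1-2 against shNT under library size scaling, and SRSF11 (0.0086) and RBM39 (0.0076) with the GC correction. Library size scaling leaves out the TMM factors, which were 0.9775 to 0.9787 with shNT, 0.9637 to 0.9678 with shLITATS1-1 and 1.057 to 1.06 with shLITATS1-2. All genes of a comparison then move by nearly the same amount, so small changes can turn sign. Why the factors differ was not tested. The number of libraries per group, 3, and the low count of U2AF1 limit the precision.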
